A study of Mus musculus with 6 samples.

Results

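The Gdpd family comprises 6 mouse genes, Gdpd1, Gdpd2, Gdpd3, Gdpd4, Gdpd5 and Gde1, that encode glycerophosphodiester phosphodiesterases, and each was followed by its 1 transcript cluster on the array. They were taken by name from the 22180 genes that the array annotation gives with a single symbol. Gdpd3 was singled out because its level differed strongly between the genotypes and 1 wild type array departed from the others, so its difference is given as a description, with no p-value, and nothing is supported with it. The levels come from bone marrow cells labelled as haematopoietic stem cells (HSCs), the cells that renew all blood lineages. They were sorted at steady state as Lineage-, Sca1+, cKit+ and Flt3-. Wild type C57Bl/6 cells gave 3 arrays and Chrm1-/- cells, labelled with the same strain and lacking a muscarinic acetylcholine receptor, gave 3 arrays. The study concerns how this receptor, acting in the central nervous system, prepares HSCs to leave the marrow, and the labels name no further allele or agent in either group. The labels give neither the age of the mice, nor the part of Chrm1 that was deleted, nor whether each array is a separate mouse. The p-values below therefore speak of variation among these arrays alone, some or all of which may be technical.

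Enzymes of this family cut the diester bond that joins glycerol phosphate to an alcohol. Gdpd1 and Gdpd3 encode membrane-bound lysophospholipases of the D type, which release a head group such as choline or an N-acylethanolamine and leave lysophosphatidic acid, a lipid that signals through surface receptors. Gde1 encodes a membrane enzyme that hydrolyses glycerophosphoinositol and glycerophospho-N-acylethanolamines. Gdpd2 and Gdpd5 encode multi-pass membrane proteins whose catalytic domain faces the outside of the cell and can release proteins held by a glycosylphosphatidylinositol (GPI) anchor, and Gdpd4 encodes a less studied relative of these. In blood formation, Gdpd3 is known for a role in the maintenance of leukaemia stem cells in a mouse model of chronic myeloid leukaemia.

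RefSeq promoter windows of build GRCm38.p6 were found for 5 of the 6 members, all but Gdpd5. The 250 bases before the annotated start are shown for Gdpd3, whose level the results turn on, for Gdpd1, which encodes the other lysophospholipase D, and for Gde1. The Gdpd3 window is chr7:126766164-126766413 on the + strand, the Gdpd1 window chr11:87074138-87074387 on the - strand and the Gde1 window chr7:118705739-118705988 on the - strand. Each reads 5′ to 3′ on the strand of its gene, and capitals mark matches to the motifs listed after them.
Gdpd3: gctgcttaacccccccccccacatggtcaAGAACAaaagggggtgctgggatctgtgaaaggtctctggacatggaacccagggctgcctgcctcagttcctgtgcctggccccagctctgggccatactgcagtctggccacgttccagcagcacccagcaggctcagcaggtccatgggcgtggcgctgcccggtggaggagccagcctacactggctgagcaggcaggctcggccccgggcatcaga
Gdpd1: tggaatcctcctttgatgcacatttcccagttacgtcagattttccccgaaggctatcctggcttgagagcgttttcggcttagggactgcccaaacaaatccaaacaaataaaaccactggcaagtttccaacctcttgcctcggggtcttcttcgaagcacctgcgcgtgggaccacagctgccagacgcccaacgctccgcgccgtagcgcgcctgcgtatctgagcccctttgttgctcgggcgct
Gde1: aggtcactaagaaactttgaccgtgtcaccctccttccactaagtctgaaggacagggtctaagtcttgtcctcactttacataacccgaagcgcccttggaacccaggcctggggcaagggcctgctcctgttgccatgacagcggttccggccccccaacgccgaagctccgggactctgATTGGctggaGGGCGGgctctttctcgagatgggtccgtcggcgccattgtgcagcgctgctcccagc

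Motifs were searched on both strands, and matches may overlap one another. The letters TATAAA were taken for the box bound by the general transcription machinery. The CCAAT box was searched by its name's own letters. The letters GGGCGG were taken for the GC box bound by Sp1 and its relatives. The letters AGATAA were taken for a site of the blood cell GATA factors. The letters TGTTCT were taken for the hexamer of the glucocorticoid receptor. The Gdpd3 window held 1 match in all, a glucocorticoid receptor hexamer read on the opposite strand, and 16.1% of the 32851 promoter windows in the table hold that hexamer. The Gde1 window held 1 CCAAT box, found in 33.8% of windows, and 1 GC box, found in 32.7%. The Gdpd1 window held 0 matches. The 2 windows of Gdpd2 held 1 TATAAA match and 1 CCAAT box between them, and that of Gdpd4 held 1 CCAAT box. The Gdpd3 window had a GC content of 65.2% with 6 CpG dinucleotides, where the medians over all windows were 52.4% and 6. The Gdpd1 window held 18 CpG dinucleotides and the Gde1 window 14. A match is a run of letters and was not tested as a binding site.

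Of the 6 arrays, wild type replicate 3 stood apart most. It lay at least 1 log2 unit below both other arrays of its group for 211 of the 11094 genes tested, where the other 5 arrays did so for 34 to 82, and its mean correlation with its group was the lowest, 0.918.

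Gdpd3 was low on some of the wild type arrays and high on every Chrm1-/- array. Its log2 signal read 8.53, 5.98 and 5.67 on wild type replicates 1 to 3 and 10.06, 10.25 and 9.78 on Chrm1-/- replicates 1 to 3. The groups did not overlap, and the wild type arrays fell into a pair of low values and 1 value between that pair and the Chrm1-/- arrays. The wild type mean was 6.73 ± 1.57 (SD, n = 3) against a Chrm1-/- mean of 10.03 ± 0.24 (SD, n = 3). The log2 difference was 3.30 ± 0.74 (SE from limma). Of the genes tested, 2.81% had 3 Chrm1-/- values above their 3 wild type values. As the gene was chosen from this contrast, nothing is read from its place in that share.

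The wild type spread of Gdpd3 was wide. Wild type replicate 1 lay 2.55 log2 units above the higher of the other wild type arrays, while those differed from each other by 0.31. The lowest Chrm1-/- array lay 1.25 above wild type replicate 1, or 2.38-fold. The SD of 1.57 ranked 42 among the 11094 genes tested, 99.6% of which had a smaller one, and the median SD of the wild type arrays was 0.19. As the gene was chosen for 1 departing wild type array, this rank restates the choice and nothing is read from it. The Chrm1-/- SD of 0.24 was larger than that of 59.6% of genes. Without wild type replicate 1, the array that departs, the difference was 4.20 ± 0.19 (SE from limma). The wild type values left, 5.98 and 5.67, are as dim as those of genes taken as silent below, so no fold is given for differences that rest on them. Without wild type replicate 3, the lowest array, the difference was 2.78 ± 0.75 (SE from limma).

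**Figure D1:**
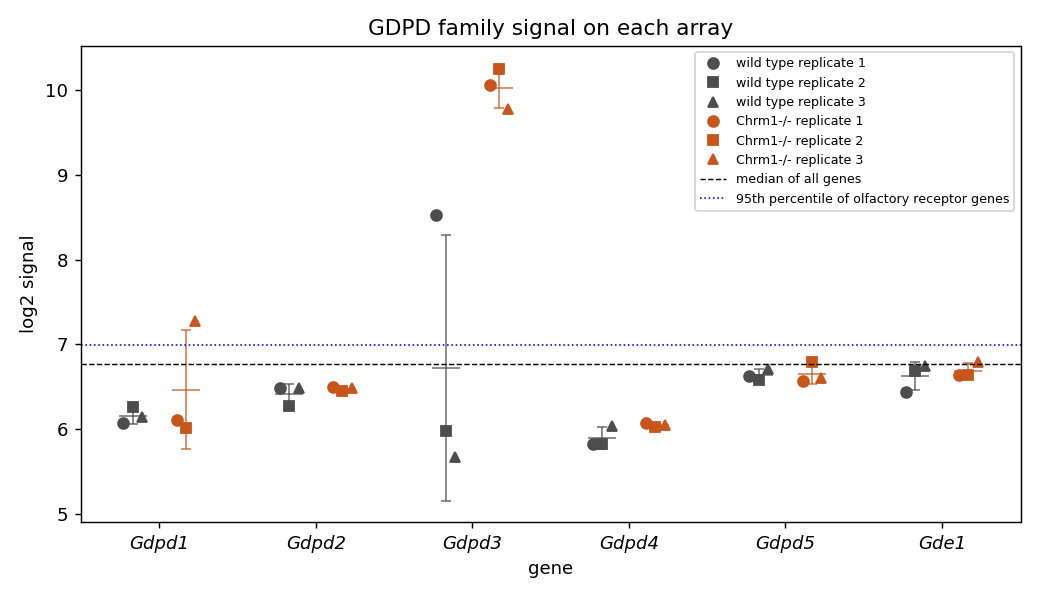
Log2 signal of the 6 family members on each array, with wild type in grey and Chrm1-/- in orange, a symbol for each replicate, and a bar for the mean with the SD of 3 arrays. The broken line is the median of all genes, 6.77, and the dotted line the 95th percentile of olfactory receptor genes, 6.99; Gdpd3 alone spans several log2 units.

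Gdpd3 was among the 11094 genes tested only through its Chrm1-/- values, and its rank by difference restates how it was chosen. Of the genes tested, 0.865% differed by at least 1 log2 unit in either direction and 0.0811% by at least 2. In limma 0 of 11094 genes passed the adjusted threshold of 0.05 (0% called), 332 had an unadjusted p under 0.05 (2.99%), and 149 of them also differed by at least 1.5-fold (1.34%). On leaving out 1 array in turn, 0 to 1 genes passed in limma, and the count was 1 without wild type replicate 1 or without Chrm1-/- replicate 3.

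**Figure D2:**
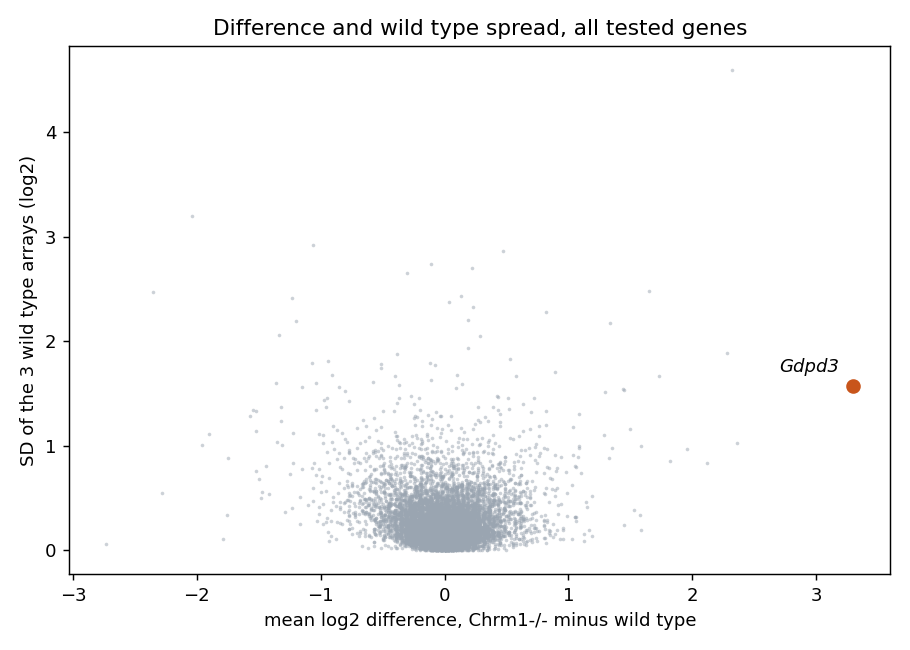
Each point is 1 of the 11094 tested genes, with the mean log2 difference of Chrm1-/- minus wild type on the x axis and the SD of the 3 wild type arrays in log2 units on the y axis. Gdpd3, in orange at 3.30 and 1.57, was chosen for its place in this plot.

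The 5 other members were dim and lay close together, except Gdpd1 on Chrm1-/- replicate 3, at 7.28. Their means over the 6 arrays ran from 5.97 to 6.66, under the median of all genes, 6.77, which a gene had to reach to be tested. So 1 of 6 members passed the filter, Gdpd3, and its wild type mean of 6.73 would not have reached it. Olfactory receptor genes, which blood cells are not known to use, give a rough guide to the signal of silent genes: over 1105 such genes the median was 4.73 and the 95th percentile 6.99. Of the 30 values of the 5 dim members, 29 lay below that percentile, as did the low wild type values of Gdpd3. Probes differ in brightness, so this is a guide and no limit of detection. In bulk samples, fewer cells with a transcript and less transcript per cell cannot be told apart.

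Among the lysophospholipases D, Gdpd1 did not share the pattern of Gdpd3. It read 6.07, 6.26 and 6.14 in wild type and 6.11, 6.01 and 7.28 in Chrm1-/-. Chrm1-/- replicate 3 lay 1.02 above the next highest array, or 2.03-fold, while the other 5 arrays spanned 0.25, so the groups overlapped and 1 array set the mean difference. That difference was 0.31 ± 0.34 (SE), with a 95% interval from -0.52 to 1.14 and an adjusted p of 0.996 in limma without the filter, the fit used for all 5 dim members. Without Chrm1-/- replicate 3 it was -0.10.

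Gde1, the glycerophosphoinositol phosphodiesterase, read 6.44, 6.69 and 6.75 in wild type and 6.64, 6.64 and 6.79 in Chrm1-/-. The groups overlapped, wild type replicate 1 being the lowest array, and the difference was 0.06 (95% interval -0.21 to 0.34). All 6 values lay below the olfactory receptor percentile of 6.99, so nothing is read from their order among the arrays.

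The multi-pass members had differences of 0.16 or less. Gdpd5, which can cut GPI anchors at the surface of developing neurons, read 6.63, 6.58 and 6.71 in wild type and 6.57, 6.79 and 6.60 in Chrm1-/-, a difference of 0.01 (95% interval -0.22 to 0.25). Gdpd2, known from bone-forming cells, read 6.48, 6.27 and 6.49 and then 6.5, 6.45 and 6.48, a difference of 0.06 (95% interval -0.16 to 0.29). Groups overlapped for both. Gdpd4 read 5.82, 5.82 and 6.04 in wild type and 6.07, 6.03 and 6.05 in Chrm1-/-, a difference of 0.16 (95% interval -0.07 to 0.39). Of its Chrm1-/- values, 1 lay below the highest wild type value. For the 5 dim members, 0 had an unadjusted p under 0.05 in limma without the filter, where 2.56% of the 22180 genes had one.

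The genes beside Gdpd3 on its chromosome differed far less between the genotypes than Gdpd3 did. Of the 10 named protein-coding genes to each side, 16 were on the array with a single symbol and 15 were tested, of which 8 were higher, 7 lower and 0 had an unadjusted p under 0.05 in limma, against 2.99% of all tested genes. Their median difference was 0.00, as it was over all tested genes, and they ran from -0.49 to 0.34. The groups did not overlap for 2 of these 15, Cln3 (-0.49) and Apobr (0.15), against 5.79% of all tested genes. Of the 2 nearest to each side, Mapk3, which lies next to Gdpd3, was not analysed here. Ypel3, the next gene on the other side, read 7.19, 7.19 and 7.22 in wild type and 7.10, 7.31 and 7.18 in Chrm1-/-. Coro1a, an actin-binding coronin of blood cells, differed by 0.02 ± 0.19 (SE), and Tbx6, a T-box transcription factor, by 0.19 ± 0.12 (SE). None of these 3 spanned a log2 unit, where Gdpd3 spanned 4.58. Farther away, Nupr1 read 8.04, 10.16 and 7.85 in wild type and 8.44 on every Chrm1-/- array.

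**Figure D3:**
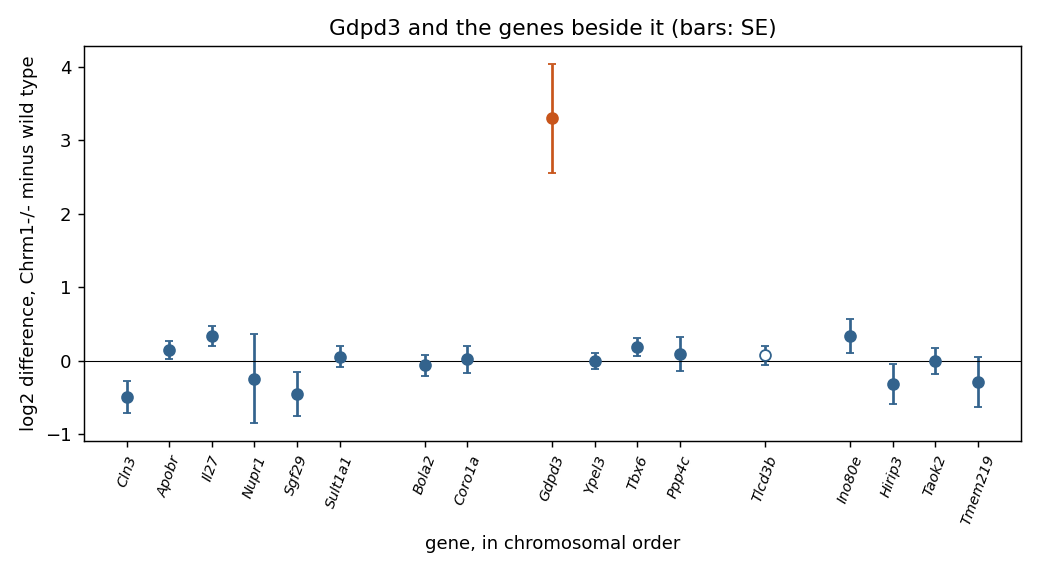
Log2 difference of Chrm1-/- minus wild type, with limma's SE as bars, for Gdpd3 (orange) and the named protein-coding genes beside it in chromosomal order (blue; the open point was below the signal filter). The neighbours lie between -0.49 and 0.34, while Gdpd3 lies at 3.30; empty places are genes not analysed here.

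Neighbours of the other members spread more widely in places, from -1.22 to 0.39 for Gdpd4, -0.64 to 0.01 for Gde1 and -0.40 to 0.61 for Gdpd2. The median difference of the tested neighbours was -0.16 for Gdpd1, -0.01 for Gdpd2, 0.05 for Gdpd4 and -0.14 for Gde1, and it rounded to 0 for Gdpd5. Of the 13 tested neighbours of Gdpd4, 1 had an unadjusted p under 0.05 in limma, against 2.99% of all tested genes. This was Acer3, an alkaline ceramidase of sphingolipid breakdown, at 7.96, 9.0 and 7.36 in wild type and 6.45, 6.81 and 7.39 in Chrm1-/-, with an adjusted p of 0.996. Its groups overlapped. Of the 9 tested neighbours of Gde1, 8 were lower and 0 had an unadjusted p under 0.05.

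The genes named as most like Gdpd3 depend on the measure of likeness. Among 2509 tested genes that spanned at least 1 log2 unit, the 5 with the highest Pearson correlation with Gdpd3 were Ogfod1 (0.956), Mthfsl (0.939), Ddias (0.939), Cnn3 (0.934) and Rasa2 (0.914). By Spearman correlation 0 of these 5 were among the 20 highest. A correlation over 6 arrays that share a large step between groups is a description of these arrays, and 0.319% of those genes reached 0.9. Ogfod1, a prolyl hydroxylase that modifies a ribosomal protein, read 9.15, 7.88 and 7.72 in wild type and 9.26, 9.11 and 9.11 in Chrm1-/-. Ddias, a gene linked to survival after DNA damage, read 9.11, 7.68 and 7.48 and then 8.85, 9.30 and 9.37. In both genes wild type replicate 1 lay among the Chrm1-/- arrays, so their groups overlapped, while for Gdpd3 that array lay below them. Cnn3, a calponin that binds actin, read 7.22, 6.90 and 7.05 and then 7.81, 7.94 and 7.94, with wild type replicate 1 again the highest of its group. Mthfsl read 9.55, 8.95 and 9.03 and then 9.67, 10.21 and 9.99. For Mthfsl and Cnn3, as for Gdpd3, wild type replicate 1 lay below the Chrm1-/- arrays and the groups did not overlap. Of all tested genes, 2.81% had such groups in this direction. Rasa2, a GTPase-activating protein for Ras, had overlapping groups, as Ogfod1 and Ddias did. Each of the 5 genes differed by far less than Gdpd3, from 0.59 to 1.08.

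**Figure D4:**
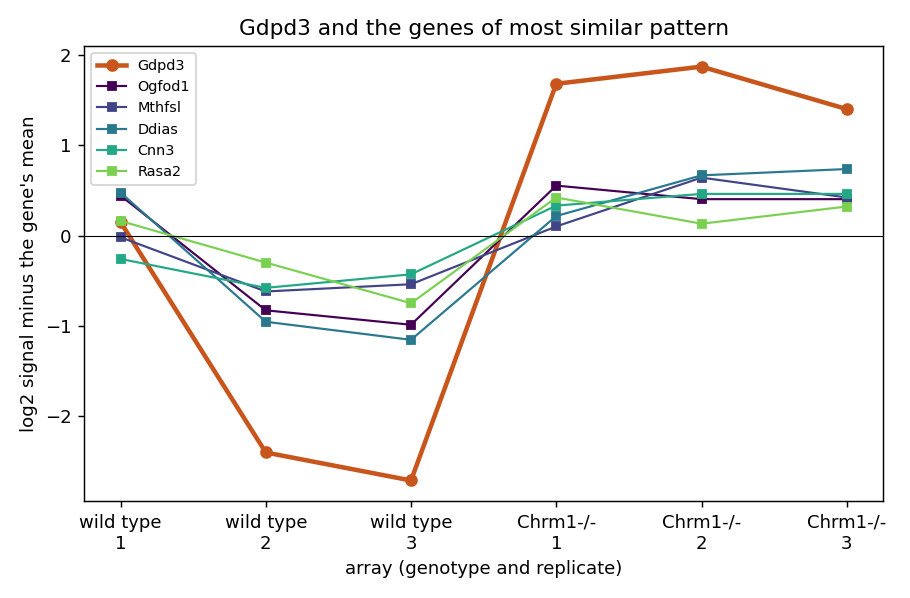
Log2 signal minus each gene's own mean on the 6 arrays (x axis, genotype and replicate) for Gdpd3 and the 5 genes of highest Pearson correlation with it; lines join the points of a gene and carry no order. Wild type replicates 2 and 3 are the low arrays of all 6 genes, and Gdpd3 has the widest span, 4.58.

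Some other genes were also low on wild type replicates 2 and 3. In 15 of the tested genes both arrays lay at least 0.5 log2 units below the 4 other arrays, and other pairs of arrays were not counted. In 4 of the 11094 tested genes, chosen after their values were seen, wild type replicates 2 and 3 both lay at least 1 log2 unit below the 4 other arrays. They were Gdpd3, Ogfod1, Ddias and Rpl3, a ribosomal protein gene with related copies that array probes may not tell apart. Gdpd3, from which the pattern was taken, had the widest gap of these. Wild type replicate 1 lay at least 1 log2 unit above both other arrays of its group for 122 genes, where the other 5 arrays did so for 91 to 117 genes. The part of these departures in the Gdpd3 values was not tested.

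Genes that share substrates or products with the family were about evenly split in direction, with single genes differing by up to -1.55. Over 6 lists, 64 of 118 genes were tested, 32 were higher and 32 lower in Chrm1-/-, and of all tested genes 5545 were higher and 5463 lower. An unadjusted p under 0.05 in limma was found for 1 higher and 1 lower gene, where all tested genes gave 1.4% higher and 1.6% lower. None passed the adjusted threshold.

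Lysophospholipases and the relative Gpcpd1 had 8 genes higher and 6 lower of 14 tested, a median difference of 0.03 and 0 with an unadjusted p under 0.05 in limma. Gpcpd1, which encodes the cytosolic glycerophosphocholine phosphodiesterase and was named for this role, read 9.56, 9.06 and 7.28 in wild type and 8.60, 8.49 and 8.49 in Chrm1-/-. Its wild type arrays lay on both sides of the Chrm1-/- arrays. Abhd12, a lysophosphatidylserine lipase, differed by -0.37 ± 0.26 (SE), the phospholipase A2 gene Pla2g4a by 0.24 ± 0.24 (SE), Plbd1 by 0.40 ± 0.40 (SE) and the lysophospholipase gene Pnpla7 by -0.11 ± 0.14 (SE).

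Choline and phosphatidylcholine genes, which use the head group that the family releases, had 5 higher and 3 lower of 8 tested, with a median of 0.07. Pemt, which makes phosphatidylcholine by methylation, read 6.52, 6.81 and 7.09 in wild type and 7.03, 7.44 and 8.18 in Chrm1-/-, so that its groups overlapped. Selenoi, an ethanolamine phosphotransferase, differed by 0.30 ± 0.15 (SE), the choline phosphotransferase gene Chpt1 by -0.37 ± 0.26 (SE) and the choline transporter-like gene Slc44a2 by 0.10 ± 0.12 (SE).

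In the N-acylethanolamine pathway, where Gde1 and the lysophospholipases D act on intermediates, 8 of 19 genes were tested. Of these, 4 were higher and 4 lower, with a median of 0.05. Napepld, below the filter and named after its values were seen, had the list's largest difference, -0.98 ± 0.48 (SE) without the filter. It read 6.14, 7.98 and 7.41 in wild type and 6.56, 5.79 and 6.24 in Chrm1-/-, and its groups overlapped. Inpp5d, the inositol phosphatase SHIP1 of blood cells, read 9.63, 9.61 and 9.61 in wild type and 9.92, 10.09 and 10.04 in Chrm1-/-, groups that did not overlap. Its difference was 0.40 ± 0.10 (SE), with an unadjusted p of 0.00706 and an adjusted p of 0.996 in limma. Abhd4, which removes acyl chains upstream of Gde1, read 7.48, 7.52 and 8.16 in wild type and 6.80, 7.08 and 7.53 in Chrm1-/-, with 1 Chrm1-/- value inside the wild type range. The amide hydrolase gene Faah differed by 0.18 ± 0.12 (SE) and Naaa, an acid amidase, by 0.31 ± 0.28 (SE).

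Lysophosphatidic acid is the product of Gdpd1 and Gdpd3. Of 6 tested genes for its turnover and reception, 1 was higher and 5 lower, with a median of -0.06. The receptor gene Lpar4 read 9.34, 7.57 and 7.08 in wild type and 8.46, 8.36 and 6.64 in Chrm1-/-. It was thus highest on wild type replicate 1 and lowest on Chrm1-/- replicate 3. The receptor genes Lpar1, Lpar2 and Lpar3 were below the filter, with group means of 6.32 and 6.36, 6.71 and 6.54, and 5.94 and 5.96 in wild type and Chrm1-/-. The lipid phosphatase genes Plpp6 and Plpp1 differed by -0.28 ± 0.29 (SE) and -0.06 ± 0.16 (SE), the phosphatase-related gene Plppr2 by -0.03 ± 0.11 (SE), and Acp6, a lysophosphatidic acid phosphatase, by 0.09 ± 0.21 (SE).

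Genes that make and use glycerol 3-phosphate, and the acyltransferases that rebuild phospholipids, had 11 higher and 9 lower of 20 tested, with a median of 0.01. Pgp, the glycerol 3-phosphate phosphatase, read 8.24, 7.93 and 9.13 in wild type and 7.81, 7.77 and 7.35 in Chrm1-/-, and Gpam, a mitochondrial glycerol 3-phosphate acyltransferase, read 7.22, 7.04 and 6.68 and then 7.25, 7.34 and 7.74. The groups of both did not overlap, as for 642 of all tested genes (5.79%), and limma gave unadjusted p of 0.0502 and 0.0572. Mboat1, a lysophospholipid acyltransferase, had the largest difference in these lists, -1.55 ± 0.80 (SE), with 9.81, 10.25 and 7.74 in wild type and 8.78, 7.70 and 6.67 in Chrm1-/-. Its groups overlapped. Mboat2 differed by 0.62 ± 0.36 (SE).

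GPI-anchored proteins and regulators of the multi-pass members had 3 higher and 5 lower of 8 tested, with a median of -0.04. Cd55, a GPI-anchored brake on complement, read 7.51, 7.62 and 7.53 in wild type and 7.29, 7.25 and 7.25 in Chrm1-/-, groups that did not overlap. Its difference was -0.29 ± 0.10 (SE), with an unadjusted p of 0.0235 and an adjusted p of 0.996 in limma. Cd59a, another complement regulator on a GPI anchor, differed by -0.27 ± 0.19 (SE), the glypican gene Gpc1 by 0.07 ± 0.10 (SE) and Pigk, a subunit of the transamidase that attaches the anchor, by -0.12 ± 0.18 (SE).

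**Figure D5:**
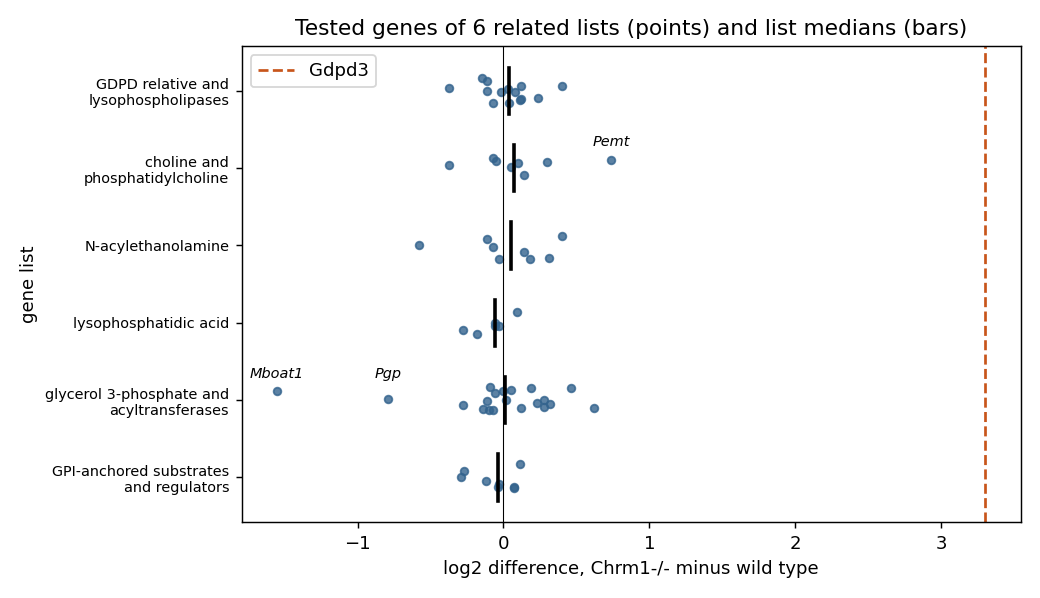
Log2 difference of Chrm1-/- minus wild type for the tested genes (points) of 6 related lists, with each list's median as a black bar and Gdpd3 as a broken orange line at 3.30. Medians lie between -0.06 and 0.07, and the widest point is Mboat1 at -1.55.

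Array medians ran from 6.49 to 6.57. Mean correlations with the other arrays of a group ran from 0.918, on wild type replicate 3, to 0.926. Means in wild type and Chrm1-/- were 10.90 and 10.88 for Kit, 11.24 and 11.30 for Cd34 and 9.99 and 10.17 for Flt3. The sort was for Flt3- cells, yet Flt3 read above the 75th percentile of every array, which ran from 7.79 to 7.88. The purity of the sorted cells was not tested. The HSC marker Procr read 8.40, 8.45 and 8.50 in wild type and 8.16, 8.19 and 8.24 in Chrm1-/-. Its groups did not overlap, as for 5.79% of all tested genes. The difference was -0.25 ± 0.10 (SE), with an unadjusted p of 0.0393 and an adjusted p of 0.996 in limma. Slamf1, another HSC marker, read 8.04, 7.87 and 7.86 and then 7.18, 7.02 and 8.44. Of 15 HSC sort and purification genes, 13 were on the array. Of these 13, 1 had an unadjusted p under 0.05 in limma, against 2.99% of all tested genes. Their mean level ran from 9.09 to 9.16 in wild type and from 8.97 to 9.18 in Chrm1-/-, a difference of -0.06. For Chrm1 the means were 7.52 and 7.75, which checks nothing about the labels, since neither the deleted part nor the place of the probes is known here. Mean levels of 8 marker lists for other blood, stromal and endothelial cells lay on wild type replicate 1 from -0.20 to 0.24 relative to the mean of the other wild type arrays. The extremes were B cell and erythroid markers. The B cell markers, with 9 of 10 on the array, lay at 6.25 to 6.63 in wild type and 6.27 to 6.53 in Chrm1-/-. The erythroid markers, with 8 of 12 on the array, lay at 8.28 to 8.56 and 8.22 to 8.58. Mean signals of 7 of the B cell and 1 of the erythroid markers lay below the olfactory receptor percentile of 6.99, as did 4 to 8 markers of each other list. A list mean over such dim genes may move little. Of these 8 lists, that of monocytes and macrophages had 1 gene of 5 tested with an unadjusted p under 0.05 in limma. The megakaryocyte and platelet list had 1 of 7, and each other list 0, against 2.99% of all tested genes. Gdpd3 departed by 2.55 or more on wild type replicate 1, and the part of other cells in its level was not tested.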

How the data were processed

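The authors deposited, to 2 decimals, a value of each transcript cluster for 3 wild type and 3 Chrm1-/- arrays. Per the series design text, RNA was amplified with a NuGEN kit, hybridised to Affymetrix mouse gene ST arrays and processed in the Affymetrix analysis software. For its summarization, normalization and version, nothing is given in the sources used here. Values deposited by the authors ran from 3.02 to 13.67 and were therefore read as log2 signals. Of 41345 clusters, 23521 had 1 gene symbol and were used, 1814 had several and 16010 none; a gene took its cluster of highest mean, which gave 22180 genes. Identifiers of 23328 clusters matched the RefSeq table of GRCm38.p6, used for names and gene order.

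Chrm1-/- minus wild type was fitted with limma 3.58.1 (lmFit and eBayes) in R 4.3.3 on the 11094 genes with a mean at or above the median, 6.77, two-sided, with Benjamini-Hochberg adjustment at 0.05; dim members come from the same fit without the filter. Python 3.11.15 and pandas 2.3.3 joined the tables. The fit was tested on simulated data with 50 genes changed at each of 4 sizes. Changes of random direction were added to the simulated Chrm1-/- arrays before the signal filter. At the adjusted threshold the fit called 25 at 2-fold, 32 at 4-fold, 32 at 8-fold and 28 at 16-fold. Genes lowered beneath the filter count as not called, so these counts mix losses to the filter with misses of limma. A gene that is not called may therefore still differ. The number of arrays limits the precision; the median SE was 0.17. Named are the members, in each list the 4 tested genes of smallest unadjusted p and those under 0.05 with at least 1.5-fold, the lysophosphatidic acid receptors, the 2 nearest neighbours to each side of Gdpd3 and neighbours with an unadjusted p under 0.05, and the 5 genes most like Gdpd3. Members and lists were chosen with earlier results of these data known. A comparison of the members' proteins was planned and not made, as no protein sequences were used here.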

Additional observations from a re-analysis of the deposited data

How the results depend on the processing

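The Gdpd3 difference stayed between 2.78 and 4.20 over the 6 fits that left out 1 array, and between 3.29 and 3.35 over the 9 other alternatives to the main setting. On leaving out 1 array, differences ran from -0.10 to 0.54 for Gdpd1, -0.01 to 0.10 for Gdpd2, 0.12 to 0.23 for Gdpd4, -0.06 to 0.05 for Gdpd5 and -0.03 to 0.12 for Gde1, and 4 of these changed sign. Their adjusted p in limma lay between 0.925 and 1 throughout. Without wild type replicate 3, Gdpd4 differed by 0.23 ± 0.08 (SE), with an unadjusted p of 0.0333 and an adjusted p of 0.925 in limma. The share of all genes with an unadjusted p under 0.05 in that fit was not counted. The number of genes past the adjusted threshold was 0, or 1 without moderation (Apmap). On leaving out 1 array it was 0 to 1: Gdpd3 without wild type replicate 1 and Snord49a without Chrm1-/- replicate 3. Gdpd3 was chosen for its difference and for that departing wild type array, so nothing is read from its passing. Genes at an unadjusted p under 0.05 with at least 1.5-fold numbered 149, against 84 past the 75th percentile of signal, 66 without moderation and 175 to 245 on leaving out 1 array, most without wild type replicate 3 or Chrm1-/- replicate 1. The median of the GPI list ran from -0.14 to 0.09 on leaving out 1 array, the highest without Chrm1-/- replicate 1; the other list medians moved by less than the spread between arrays. The cause of these shifts was not tested.

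By Spearman correlation, 0 of the 5 genes named as most like Gdpd3 were among the 20 highest. With the replicate number as a block, the Gdpd3 difference was 3.30 ± 0.61 (SE), 0 genes passed in limma and 209 had an unadjusted p under 0.05 with at least 1.5-fold. Deviations of same-numbered arrays correlated at -0.03, 0.01 and -0.01, and those of different-numbered arrays at -0.02 to 0.03. The labels do not say whether same-numbered arrays were handled together, and these correlations cannot settle it. The alignment alternative for the protein comparison was not run.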

Other observations

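Deposited values often repeat exactly between arrays. Of the tested genes, 40.0% held the same value, to 2 decimals, on 2 or more of the 6 arrays and 9.74% on 3 or more. Among the family, 3 of 6 members held a value shared by 2 arrays, and Gdpd3 had none. Their cause, and their part in the standard errors, was not tested.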
